A study of Mus musculus with 6 samples.

Results

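The genes described here encode 7 metalloproteases and 3 of their tissue inhibitors. The members are fixed by gene name: the 5 ADAM proteases Adam8, Adam9, Adam10, Adam15 and Adam17, the 2 matrix metalloproteases Mmp12 and Mmp14, and the inhibitors Timp1, Timp2 and Timp3, 10 of the 49585 genes counted. All 10 were found in the count tables. They were measured by bulk RNA sequencing of microglia, the resident macrophages of the brain, in 6 libraries, of which 3 were wild type (WT) and 3 carried the label IRF8KO, a knockout of the transcription factor IRF8. All mice were male and aged 3 months. Cells of each brain were released without enzymes and sorted as microglia into TRIzol. The labels give neither the allele nor the strain, and no control other than WT.

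ADAM proteases sit in the cell membrane and cut the outer parts of other membrane proteins loose, a process called shedding. ADAM10 and ADAM17 are the main sheddases of most cells: ADAM17, also called TACE, releases tumour necrosis factor, and ADAM10 cuts Notch receptors, the amyloid precursor protein and TREM2. Matrix metalloproteases cut the extracellular matrix, among many other substrates. The TIMP proteins block the active site of these enzymes, and TIMP2 also forms the bridge by which MMP14 activates the gelatinase MMP2.

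Gene counts per library ranged from 3658917 to 11098363. Levels are given as CPM, a count relative to the library size after scaling by the trimmed mean of M-values (TMM), and a gene was called when the adjusted p of edgeR's quasi-likelihood test was under 0.05 (Benjamini-Hochberg over 11041 tested genes). Over those genes the log2 fold change, IRF8KO against WT, had a median of −0.11. Irf8 itself had 795, 851 and 1403 CPM in WT and 743, 650 and 850 CPM in the libraries labelled IRF8KO, replicates 1 to 3 in each (adjusted p = 0.368, edgeR quasi-likelihood test), and a count over the whole gene cannot tell whether an exon is missing, so the genotypes rest on the labels. Of the microglial markers, Csf1r (the receptor for colony-stimulating factor) and Tmem119 were high in all libraries (group means of 6558 to 22937 CPM), whereas Sall1 was at 51.0 to 143 CPM in WT and at 0 counts in all IRF8KO libraries. Of the 10 homeostatic microglial markers, 4 were called lower (P2ry12, Gpr34, Cx3cr1 and Sall1), 1 higher (Fcrls) and 5 were not called. Their summed level was 41988 to 69136 CPM in WT and 32732 to 46039 CPM in IRF8KO. Some libraries stood apart from their group. WT replicate 3 differed from WT replicates 1 and 2 in a way that rose with the GC content of genes (Spearman's rho of 0.615 over 11034 genes, a description since genes are no replicates), and IRF8KO replicate 2 differed from IRF8KO replicates 1 and 3 in the opposite sense (−0.435). IRF8KO replicate 2 was also the library with neutrophil granule transcripts, such as S100a8 at 121 CPM and Ngp at 79.2 CPM, which had at most 0.803 and 0 CPM elsewhere.

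Transcripts of the sheddases Adam10, Adam15 and Adam17 were lower in IRF8KO microglia, and that of Adam8 was higher, although the Adam8 call was marginal. Of the 10 members, 7 passed the filter on low counts, 4 of those were called, 1 higher and 3 lower, and the other 3 tested members, Adam9, Mmp14 and Timp2, were not. Over all tested genes the test called 19.1%, with 9.64% higher and 9.46% lower. The libraries of the groups did not overlap for 5 of the 7, as for 37.9% of all tested genes. The members are few and no test of them as a group was made. The count of called members was 1, Adam17, without IRF8KO replicate 1 and without IRF8KO replicate 3, and 3 in each of the other fits without 1 library. In bulk RNA, fewer cells of a type and less RNA per cell cannot be told apart. Markers of border-associated macrophages, given further below, were called higher in IRF8KO (all 7 tested). Their part in the members' changes was not tested.

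**Figure D1:**
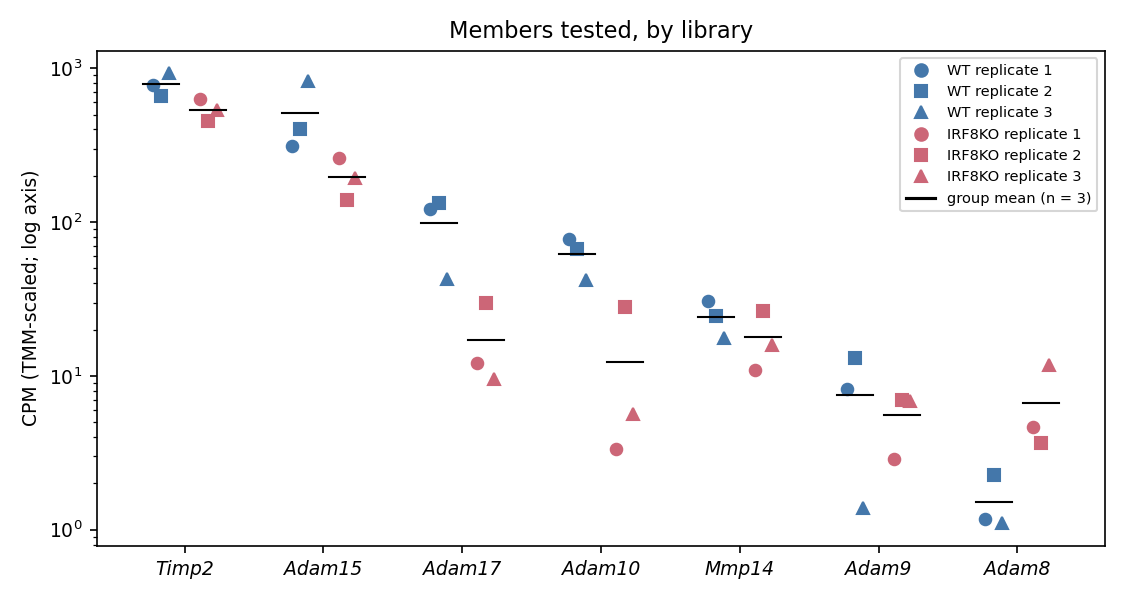
Levels of the 7 tested members in each library (vertical log axis, CPM scaled by TMM). Blue symbols are WT and red symbols IRF8KO, with 1 symbol shape per replicate number and a black bar at each group mean (n = 3). Timp2 and Adam15 lie highest, the IRF8KO values of Adam10, Adam15 and Adam17 all lie below the WT values, and those of Adam8 lie above.

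Of the members, Adam17 had the smallest adjusted p and was lower in IRF8KO. The gene (ENSMUSG00000052593, chromosome 12, 21323509 to 21373632, minus strand, GRCm38) had 122, 133 and 42.7 CPM in WT replicates 1, 2 and 3 and 12.2, 29.9 and 9.54 CPM in IRF8KO replicates 1, 2 and 3. The groups did not overlap, although WT replicate 3 lay far below the other WT libraries and IRF8KO replicate 2 above the other IRF8KO libraries. The group means were 99.4 ± 49.4 and 17.2 ± 11.1 CPM (SD, n = 3 each), and the fitted log2 difference was −2.52 (SE 0.51; adjusted p = 0.00514, edgeR quasi-likelihood test). Adam17 was called in all 20 alternatives, with log2 fold changes from −3.47 to −1.66 and adjusted p of at most 0.0487 (edgeR quasi-likelihood, DESeq2 or limma-voom). Its value moved most toward zero with counts from 1 strand only, at −1.93 and −1.66. Iah1 on the other strand covers 4.35% of its exonic length.

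Adam10 (ENSMUSG00000054693, chromosome 9, 70678997 to 70780229, plus strand) was also lower. It had 77.4, 67.3 and 42.0 CPM in WT replicates 1 to 3 and 3.37, 27.9 and 5.64 CPM in IRF8KO replicates 1 to 3. Every WT value lay above every IRF8KO value, and IRF8KO replicate 2 was again the highest of its group. The means of 62.3 ± 18.2 and 12.3 ± 13.6 CPM (SD, n = 3 each) gave a log2 fold change of −2.31 (SE 0.63; adjusted p = 0.0234, edgeR quasi-likelihood test). Without IRF8KO replicate 2 the change was −3.76, and without IRF8KO replicate 1 or 3 it was −1.87 and −1.95 and no longer called (adjusted p of 0.0802 and 0.135, same edgeR test). The ratio of Adam10 to Adam17, per length of exon, was 1.03 ± 0.361 in WT and 0.874 ± 0.479 in IRF8KO (SD, n = 3 each), with overlapping values.

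The transcripts of Adam10 and Adam17 have a GC content of 42.1% and 45.1%, against a median of 50.1% over tested genes, and so lie on the side where WT replicate 3 was low and IRF8KO replicate 2 high. With each library's trend along GC content removed, both remained called, at −1.85 for Adam10 (adjusted p = 0.0221, edgeR) and −2.04 for Adam17 (0.00242). With WT replicate 3 and IRF8KO replicate 2 both left out, a choice made after the data were seen, the log2 fold changes were −3.88 and −3.47.

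Adam15, a membrane protease with an integrin-binding disintegrin domain, was the most abundant of the ADAM members per kb of exon. The gene (ENSMUSG00000028041, chromosome 3, 89338542 to 89349996, minus strand) had 313, 404 and 824 CPM in WT replicates 1 to 3 and 261, 140 and 193 CPM in IRF8KO replicates 1 to 3. The groups did not overlap, but WT replicate 1 and IRF8KO replicate 1 lay close together, and WT replicate 3 was the highest of all, the reverse of its place for Adam10 and Adam17. Its transcript has a GC content of 57.9%. The means were 514 ± 273 and 198 ± 60.6 CPM (SD, n = 3 each), with a log2 fold change of −1.38 (SE 0.40; adjusted p = 0.0310, edgeR quasi-likelihood test). Without WT replicate 3 the change was −0.84, still called at 0.0208 in the same edgeR test. It was −1.62, −1.17 and −1.35 and not called without IRF8KO replicate 1, 2 or 3 (adjusted p of 0.0631, 0.105 and 0.152), and −0.57, not called (0.0573), without both WT replicate 3 and IRF8KO replicate 2. With the GC trend removed it was −1.49 (adjusted p = 0.00142, same test). A gene on the other strand, 4731419I09Rik, covers 20.6% of its exonic length.

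Adam8 (ENSMUSG00000025473, chromosome 7, 139978932 to 139992562, minus strand), a protease of activated myeloid cells, rose from a low level. Its raw counts were 6, 32 and 8 in WT and 29, 41 and 108 in IRF8KO. That is 1.17, 2.27 and 1.10 CPM for the WT libraries and 4.65, 3.68 and 11.7 CPM for the IRF8KO libraries, replicates 1 to 3 in each, without overlap but with IRF8KO replicate 3 far above the rest. The means of 1.51 ± 0.654 and 6.68 ± 4.38 CPM (SD, n = 3 each) gave a log2 fold change of 2.10 (SE 0.68; adjusted p = 0.0491, edgeR quasi-likelihood test). The call held in 7 of 19 alternatives and, among the fits without 1 library, only without IRF8KO replicate 2. Without IRF8KO replicate 3 the change was 1.44 (adjusted p = 0.294, same edgeR test). Among the IRF8KO libraries, Adam8 was lowest in replicate 2, which held the granule transcripts of neutrophils. Another neutrophil marker, Cxcr2, had 0 counts in WT and 10, 46 and 16 counts in IRF8KO replicates 1 to 3. The part of neutrophils in the Adam8 result was not tested.

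Adam9, a close relative that also sheds membrane proteins, had 8.17, 13 and 1.38 CPM in WT and 2.89, 7.0 and 6.83 CPM in IRF8KO. The groups overlapped, with WT replicate 3 the lowest of all libraries and WT replicate 2 the highest. Its log2 fold change of −0.43 (SE 0.70) was not called (adjusted p = 0.703, edgeR quasi-likelihood test), and it turned to 0.24 without WT replicate 2.

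**Figure D2:**
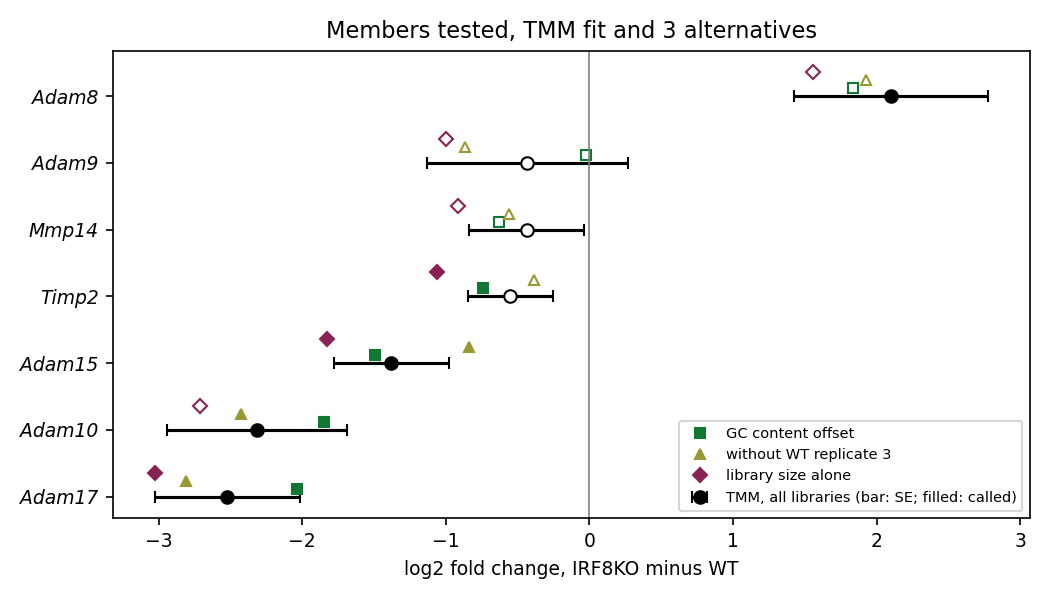
Log2 fold change (IRF8KO minus WT) of the 7 tested members. Black circles are the fit to all libraries with TMM scaling (bars: SE), green squares the fit with the GC trend removed, triangles the fit without WT replicate 3 and diamonds the fit with library size alone; filled symbols were called. Adam17 and Adam15 are filled throughout, Adam10 in all but the fit with library size alone, Adam8 only as a black circle, and Timp2 only as a green square and a diamond.

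The promoters of the ADAM genes that were called, and that of Mmp14 for contrast, are shown because IRF8 is known to bind DNA beside PU.1 at composite sites. The 250 bases before the annotated start were taken from RefSeq (build GRCm38.p6), 5′ to 3′, for the 9 members matched there. Adam9 was not analysed here. Both strands were searched for the PU.1-IRF composite (GGAA and GAAA with any 2 bases between), the interferon-response core (GAAA and GAAA with any 2 bases between), the AP-1 site TGANTCA and the PU.1 core GAGGAAG. The composite and the PU.1 core can share the letters GGAA, and the composite and the response core the letters GAAA. Capitals mark a match.
Adam10, chr9:70678732-70678981, plus strand: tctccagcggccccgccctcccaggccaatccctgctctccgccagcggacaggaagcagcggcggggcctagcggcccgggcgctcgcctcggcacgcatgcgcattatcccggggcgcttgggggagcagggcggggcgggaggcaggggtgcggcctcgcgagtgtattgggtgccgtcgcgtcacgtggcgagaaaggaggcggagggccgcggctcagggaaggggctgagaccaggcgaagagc
Adam15, chr3:89350029-89350278, minus strand: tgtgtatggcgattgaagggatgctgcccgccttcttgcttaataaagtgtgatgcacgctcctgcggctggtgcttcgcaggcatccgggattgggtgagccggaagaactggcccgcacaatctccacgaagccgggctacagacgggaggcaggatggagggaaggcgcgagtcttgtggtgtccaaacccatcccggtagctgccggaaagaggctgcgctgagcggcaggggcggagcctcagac
Adam17, chr12:21373633-21373882, minus strand: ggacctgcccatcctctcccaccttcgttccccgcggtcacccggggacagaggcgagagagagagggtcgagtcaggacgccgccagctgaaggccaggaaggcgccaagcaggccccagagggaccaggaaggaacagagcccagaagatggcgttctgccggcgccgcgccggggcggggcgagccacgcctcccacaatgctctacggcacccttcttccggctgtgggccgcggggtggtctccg
Adam8, chr7:139992563-139992812, minus strand: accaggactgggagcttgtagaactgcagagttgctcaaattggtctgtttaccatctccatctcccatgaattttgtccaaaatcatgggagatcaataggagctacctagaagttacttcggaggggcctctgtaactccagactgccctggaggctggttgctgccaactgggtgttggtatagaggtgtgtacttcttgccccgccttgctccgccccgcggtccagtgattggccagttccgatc
Mmp14, chr14:54431348-54431597, plus strand: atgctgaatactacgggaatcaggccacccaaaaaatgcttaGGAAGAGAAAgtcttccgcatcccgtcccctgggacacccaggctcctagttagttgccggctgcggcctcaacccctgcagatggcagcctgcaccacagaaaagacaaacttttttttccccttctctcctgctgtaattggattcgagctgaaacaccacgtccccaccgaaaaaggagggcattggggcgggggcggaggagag
No match to these letters lay in the windows of Adam8, Adam10, Adam15 or Adam17. Mmp14 held 1 composite match, a motif that 2.30% of all 32851 promoter windows hold. Of the other members, Mmp12 had 2 annotated starts, with a PU.1 core before one (10.6% of all windows) and an AP-1 site before the other (6.75%). The interferon-response core, present in 2.98% of all windows, was in none of the 10 windows of the members. The GC content was 74.0%, 62.0% and 70.4% for Adam10, Adam15 and Adam17 and 52.8% for Adam8. A match is a run of letters and was not tested for binding.

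Among the matrix metalloproteases, Mmp14 (also called MT1-MMP, anchored in the membrane) was present at a modest level in every library and Mmp12, the elastase of macrophages, was almost absent. Mmp14 (ENSMUSG00000000957, chromosome 14, 54431612 to 54445364, plus strand) had 30.5, 24.6 and 17.5 CPM in WT and 10.9, 26.6 and 15.8 CPM in IRF8KO. The groups overlapped, and IRF8KO replicate 2 reached the WT range. Its log2 fold change was −0.44 (SE 0.40; adjusted p = 0.477, edgeR quasi-likelihood test), below zero in all 20 alternatives and called in 1, without WT replicate 3 and IRF8KO replicate 2, at −0.94. Mmp12 had 9 counts in WT replicate 3 and 0 counts in the other 5 libraries, where a count of 0 allows up to 3 counts, or 0.212 to 0.584 CPM. It was not tested.

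Of the inhibitors, Timp2 was by far the most abundant and the only one with more than traces. Timp2 (ENSMUSG00000017466, chromosome 11, 118301069 to 118355740, minus strand) had 778, 664 and 928 CPM in WT and 629, 457 and 532 CPM in IRF8KO. The IRF8KO values lay below the WT values without overlap, as they did for 17.9% of all tested genes. The means were 790 ± 132 and 540 ± 86.3 CPM (SD, n = 3 each), and at −0.55 (SE 0.30) the log2 difference was not called (adjusted p = 0.214, edgeR quasi-likelihood test). It was called lower in 4 of 20 alternatives, at −0.74 with the GC trend removed, at −0.74 in that fit without WT replicate 3 or with the replicate number as a block, and at −1.06 with library size alone, which moves the median of all genes to −0.61. Relative to that median the change was −0.44 under TMM and −0.45 with library size alone.

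Timp1, which inhibits most matrix metalloproteases and ADAM10, had 1 count in WT replicate 1 and 0 counts in all other libraries. Timp3, the matrix-bound inhibitor of ADAM17, had 3 counts in WT replicate 1, and 14 and 4 counts in IRF8KO replicates 2 and 3, with 0 in the other libraries. Both were too low to be tested. Fibroblasts and mural cells are known sources of Timp1 and Timp3, and 5 of 10 marker genes of those cells, among them Dcn, Lum and Rgs5, had 0 counts in every library. The summed level of that marker list was 0 to 6.42 CPM in WT and 0.868 to 10.4 CPM in IRF8KO. Within it, Pdgfrb reached 7.22 CPM in IRF8KO replicate 1. Cspg4, also a pericyte gene but counted here with the oligodendrocyte lineage, had group means of 0.446 CPM in WT and 66.2 CPM in IRF8KO. The part of such cells in the Timp1 and Timp3 levels was not tested.

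Between genes, levels were compared per kb of exon. In WT the order was Timp2 (203 ± 34.0 CPM per kb), Adam15 (83.6 ± 44.4), Adam17 (13.9 ± 6.90), Adam10 (12.7 ± 3.71), Mmp14 (4.06 ± 1.10), Adam9 (1.83 ± 1.42) and Adam8 (0.326 ± 0.141; SD, n = 3 for each). Adam17 and Adam10 did not differ beyond their spread, and the ranges of Mmp14 and Adam9 and of Adam9 and Adam8 also overlapped. In IRF8KO Timp2 (138 ± 22.2 CPM per kb) and Adam15 (32.2 ± 9.86) again led. Mmp14 (2.98 ± 1.34 CPM per kb), Adam10 (2.5 ± 2.76), Adam17 (2.41 ± 1.55), Adam8 (1.44 ± 0.945) and Adam9 (1.35 ± 0.565) followed, and neighbours in that order overlapped, while Mmp14 lay above Adam9 in every IRF8KO library. Per kb, Adam17 and Adam10 lay above Mmp14 in each WT library. In IRF8KO, Adam17 lay below Mmp14 in each library (1.71, 4.18 and 1.33 against 1.83, 4.46 and 2.66 CPM per kb in replicates 1 to 3). Adam10 lay below it in IRF8KO replicates 1 and 3, at 0.686 and 1.15 CPM per kb, and above it in IRF8KO replicate 2, at 5.68 CPM per kb. The order depends on the length used. The longest transcript has 3.24 of 5.96 kb of exon for Mmp14, 4.47 of 7.15 kb for Adam17 and 4.59 of 4.91 kb for Adam10. With that length Mmp14 lies above Adam10 in IRF8KO replicate 2 too, and Adam17 above Adam10 in each WT library.

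Summed per kb, the 5 ADAM members had 112 ± 32.9 in WT and 39.9 ± 5.92 CPM per kb in IRF8KO, and the 3 TIMP members had 203 ± 34.0 and 139 ± 22.1 (SD, n = 3 each). The ratio of proteases to TIMPs was 0.456, 0.621 and 0.639 for WT, against 0.299, 0.336 and 0.299 for IRF8KO, replicates 1 to 3 in each. The ratio was lower in every IRF8KO library than in any WT library; it is a ratio of transcripts, given as a description with no test. Adam15 made up 59.2% to 89.9% of the ADAM sum in WT and 64.8% to 91.2% in IRF8KO, and Timp2 between 99.9% and 100% of the TIMP sum.

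**Figure D3:**
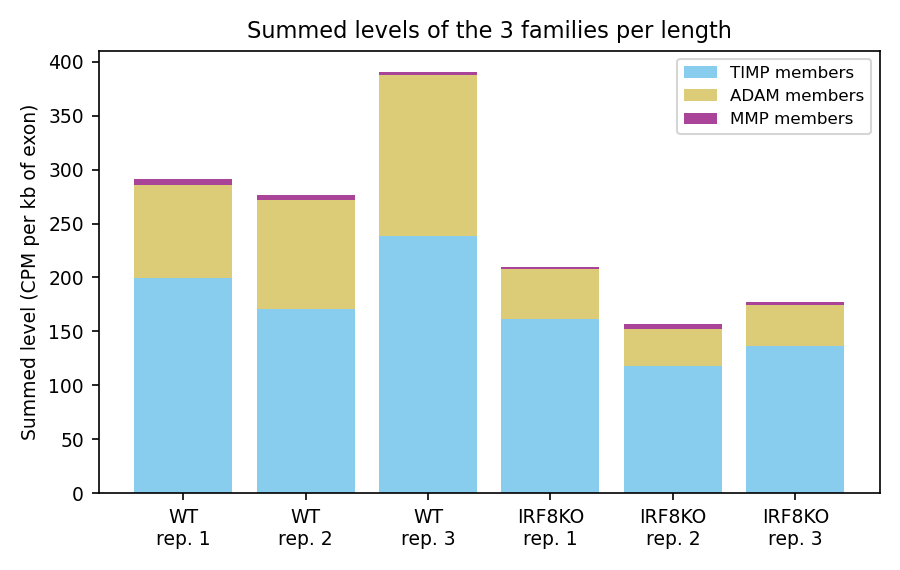
Summed level of the TIMP, ADAM and MMP members in each library (stacked bars from 0, CPM per kb of exon). The TIMP part, nearly all Timp2, is the largest in every library, and the ADAM part is 86.0 to 149 in WT and 35.1 to 46.5 in IRF8KO.

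For each called member, the 3 tested genes with the most similar course over the 6 libraries were found by the root mean square difference of centred log2 CPM, among 6169 tested genes whose mean was 10 CPM or more. For Adam17 these were Rin2 (0.0911), Casd1 (0.186) and Cysltr1 (0.203 log2 units). For Adam15 they were Hps6 (0.0941), Klhl25 (0.100) and Itm2c (0.117). Adam10 had no neighbour as close, with Ythdf3, Fam91a1 and Rnf2 at 0.277 to 0.341, and the nearest to Adam8 were Tpt1, Rpl21 and Cep164 at 0.198 to 0.317. All 6 points of each comparison come from the same libraries, with their shared GC trend.

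The remaining genes come from lists of related proteins. Of 8 further ADAM genes only Adam33 passed the filter, and it rose. It had 2.72, 2.69 and 0.414 CPM in WT replicates 1 to 3 and 38.0, 29.4 and 42.8 CPM in IRF8KO replicates 1 to 3. The groups lay far apart, and the log2 fold change was 4.22 (SE 0.56; adjusted p = 3.7e-04, edgeR quasi-likelihood test), called in all 19 alternatives. Adam19 had 0 counts in WT and 67 counts over the IRF8KO libraries, below the filter. It passed and was called higher in 7 alternatives, among them the fits without WT replicate 1, 2 or 3 and without IRF8KO replicate 1 (edgeR adjusted p of 0.00796 to 0.0343 in these 4).

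Of 18 further matrix metalloproteases, 6 were tested, 1 was called higher and 2 lower. Over the alternatives 0 to 2 were called higher and 1 to 4 lower. Their median log2 fold change was −1.79. Mmp11, or stromelysin-3, had 10.2 ± 3.37 CPM for WT against 2.83 ± 2.15 CPM for IRF8KO (SD, n = 3), a log2 difference of −1.87 that edgeR did not call under TMM (adjusted p = 0.0522) but that was called lower in 11 of 20 alternatives. Mmp28, or epilysin, had 4.09, 4.04 and 7.58 CPM in WT. No IRF8KO library had a count of it, which makes it at least 44.46-fold lower in counts that ignore strand, when 3 counts over the group are taken as the floor (adjusted p = 0.00144, edgeR quasi-likelihood test). A gene on the other strand covers 12% of its exons, and with the counts of either strand alone, where some IRF8KO libraries had counts, the fitted log2 difference of Mmp28 was −4.48 and −5.64, still called. Mmp23 had 126 counts over WT and 1 over IRF8KO, in library-scaled terms a 126-fold ratio (22.3 to 5030, exact 95% interval for counting error) (adjusted p = 0.00251, same edgeR test). Mmp19 averaged 0.354 ± 0.613 CPM for WT against 5.10 ± 3.10 CPM for IRF8KO (SD, n = 3), a log2 difference of 3.52 (adjusted p = 0.0454, edgeR). All 15 WT counts were in WT replicate 2, and without that library the fitted difference was 8.32, which depends on the prior count. With the counts of either strand alone the difference was 0.10 and 0.52 and not called (adjusted p of 0.883 and 0.382, edgeR), and genes on the other strand cover 28.3% of its exons. Its call was also lost without WT replicate 1 and without any 1 IRF8KO library, with adjusted p between 0.0871 and 0.136 (edgeR). Mmp2, the gelatinase activated by MMP14 and TIMP2, had 33.7, 47.5 and 34.6 CPM in WT and 71.3, 37.2 and 34.4 CPM in IRF8KO. The groups overlapped, only IRF8KO replicate 1 being high, and at 0.30 (SE 0.34) the log2 difference was not called (adjusted p = 0.579, edgeR) and fell below zero without that library, at −0.10, and with library size alone, at −0.28. Of the rest, 7 had 0 counts in every library, and Mmp9 and Mmp25 were below the filter.

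The secreted ADAMTS proteases were mostly silent: 16 of 19 were untested, 7 of these at 0 counts everywhere. The 3 tested genes were called, 1 higher and 2 lower, against 19.1% called over all tested genes. Their median log2 fold change of −4.34 is the value of Adamts1. Adamts16 had 187 counts over WT and 2 over IRF8KO, or 93.8-fold after scaling (25.6 to 780, exact 95% interval for counting error). Adamts10 rose from 8.30 ± 2.54 to 24.9 ± 2.40 CPM. Adamts1 had 35.0, 56.9 and 1.10 CPM in WT replicates 1 to 3 and 2.57, 1.88 and 0.217 CPM in IRF8KO. Only WT replicates 1 and 2 were high, and the groups overlapped. The same libraries had the highest sums of the immediate early gene list, 5780 and 11013 CPM against 840 CPM in WT replicate 3 and 785 to 1033 CPM in IRF8KO; its part in the Adamts1 result was not tested. The adjusted p of Adamts16, Adamts10 and Adamts1 were 9.9e-04, 0.0126 and 0.0160 (edgeR quasi-likelihood test). The Adamts10 call was lost without WT replicate 1 and without IRF8KO replicate 1 (0.0577 and 0.0529), and that of Adamts1 without WT replicate 2, IRF8KO replicate 1 or IRF8KO replicate 3 (0.0511 to 0.0975). Adamts10 was also not called with library size alone (1.06, adjusted p = 0.108, edgeR), nor Adamts1 by limma-voom (−3.88, adjusted p = 0.185).

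Among the remaining inhibitors, Timp4 rose from 0.411 ± 0.36 to 5.09 ± 1.78 CPM (SD, n = 3), with a fitted log2 difference of 3.61 (SE 0.84; adjusted p = 0.0114, edgeR), with the call lost without WT replicate 2 (0.0557) and without IRF8KO replicate 3 (0.0711). In the brain Timp4 is not particular to microglia, and some markers of other brain cells moved with it. Of 8 astrocyte markers 6 were tested, 4 were called higher (Gfap from 3.02 to 15.7, Slc1a2 from 0.134 to 4.18, Clu from 9.83 to 45.8 and Aldh1l1 from 3.21 to 12.03 CPM in the group means) and 1 lower (Slc1a3 from 152 to 8.76 CPM). The summed level of that list was 191 to 222 CPM in WT and 148 to 256 CPM in IRF8KO, and the astrocyte genes Aqp4 and Gja1 were at 0 to 1.08 CPM in every library. Of 8 neuronal markers 4 were tested and 2 called higher, with a summed level of 0.354 to 8.68 CPM in WT and 20.6 to 27.5 CPM in IRF8KO. Of 10 oligodendrocyte-lineage markers 7 were tested, 1 was called higher (Cspg4, also a pericyte gene, from 0.446 to 66.2 CPM) and 1 lower (Cnp from 186 to 45.2 CPM). Mbp had 152 and 437 CPM and was not called, Olig2 was at 0 counts throughout, and the summed level was 285 to 701 CPM in WT and 555 to 750 CPM in IRF8KO. The part of these lists in the Timp4 result was not tested. Reck, a membrane-anchored inhibitor, had 26 counts over WT, 20 of them in WT replicate 1, and 0 in IRF8KO, and was not tested. Basigin (Bsg), an inducer of matrix metalloproteases, was abundant at 830 ± 288 and 1169 ± 217 CPM and was not called (log2 fold change 0.49, adjusted p = 0.331, edgeR), but was called without WT replicate 3, at 0.84 (adjusted p = 0.00815).

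The proteins that carry ADAM10 and ADAM17 to the cell surface did not share 1 direction. Of the 8 tested genes of 9 listed, 2 were called higher and 1 lower, and the median log2 fold change was 0.25. The lower one was Tspan33, one of the C8 tetraspanins that bind ADAM10, with 60.1, 57.2 and 132 CPM in WT and 20.4, 15.4 and 9.22 CPM in IRF8KO. Its log2 fold change was −2.48 (SE 0.42; adjusted p = 0.00178, edgeR quasi-likelihood test), called in all 20 alternatives. It was −1.94 without WT replicate 3, and −1.21 when the GC trend was removed as well. Tspan10 had 0 counts in WT and was at least 29.58-fold higher in IRF8KO, from 89 counts over the group. Tspan17 rose from 2.43 ± 1.18 to 10.8 ± 3.29 CPM, with the call lost in 4 of the 6 fits without 1 library, all but those without WT replicate 3 and without IRF8KO replicate 2 (adjusted p of up to 0.0905, edgeR). Tspan14, another of these tetraspanins, had 1068 ± 307 and 1586 ± 371 CPM and was not called. The ADAM17 partners Rhbdf1, Rhbdf2 and Frmd8 were not called by edgeR under TMM either. Rhbdf2, which encodes iRhom2, had 36.4, 44.7 and 95.9 CPM in WT and 162, 99.6 and 105 CPM in IRF8KO, without overlap (log2 fold change 1.05, SE 0.38; adjusted p = 0.0738, edgeR). It was called higher in 11 of 20 alternatives, among them DESeq2, limma-voom and the GC offset (adjusted p of 0.0460, 0.0432 and 0.0150). With the GC trend removed Frmd8 was called lower, at −0.96, and the list had 3 genes called higher and 2 lower. Without WT replicate 3 it had 4 higher and 1 lower, Tspan14 and Rhbdf2 among the higher. That fit called 2168 of 11953 tested genes higher and 1835 lower. Of 4 proprotein convertases, which cut the prodomain of these proteases, Furin and Pcsk7 were tested and not called, with adjusted p of 0.325 and 0.227 (edgeR). Of the 2, 0 had an unadjusted p under 0.05 in edgeR and DESeq2 called 0, but both were called lower with the GC trend removed and with library size alone.

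**Figure D4:**
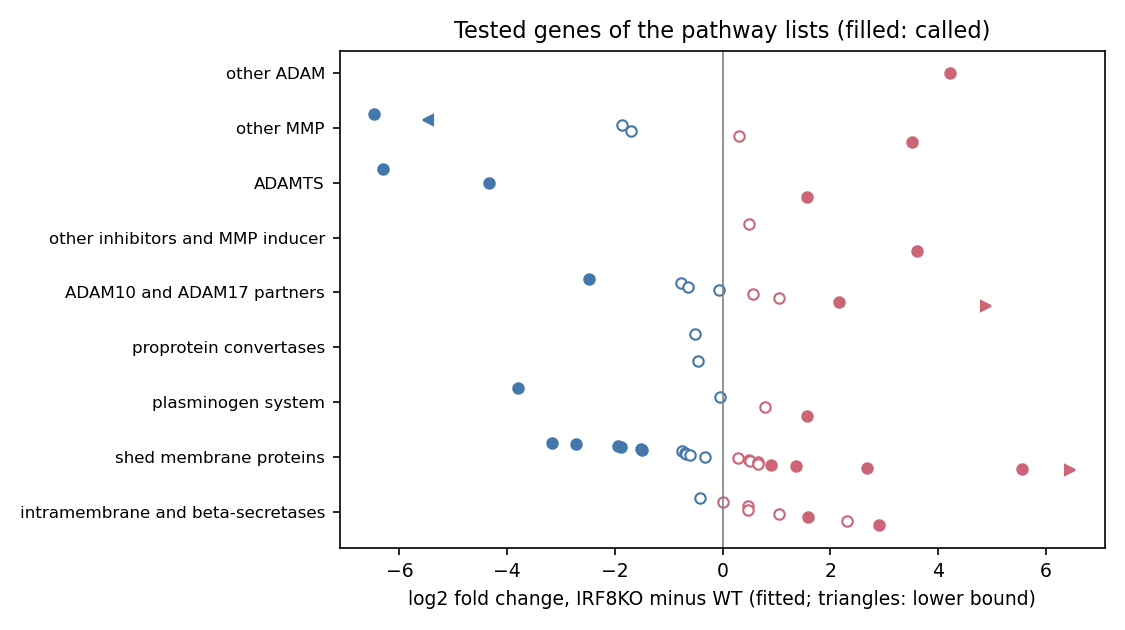
Log2 fold change (IRF8KO minus WT) of every tested gene in the 9 lists of related genes. Each symbol is 1 gene, blue below zero and red above, filled where called; triangles are lower bounds of genes with 0 counts in a group. Calls lie on both sides of zero in 5 lists, above zero only in 3, and the proprotein convertases have none.

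In the plasminogen system, which activates several matrix metalloproteases, 4 of 7 genes were tested, 1 was called higher and 1 lower. Serpine2, an inhibitor of plasminogen activators and thrombin, had 579, 540 and 469 CPM in WT and 42.7, 37.4 and 34.3 CPM in IRF8KO. The values were tight in both groups, with a log2 fold change of −3.80 (SE 0.30; adjusted p = 1.1e-05, edgeR), called in all 20 alternatives. Plaur, the urokinase receptor, rose from 45.5 ± 13.1 to 135 ± 44.2 CPM (log2 fold change 1.57, SE 0.33; adjusted p = 0.00630, edgeR), also called in all 20. Plau was not called, at 4.46 to 6.20 CPM in WT and 3.15 to 5.94 CPM in IRF8KO.

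Transcripts of known shed proteins moved both ways. Of 25 listed, 21 were tested, 5 were called higher and 6 lower, and the median log2 fold change was −0.32. The 4 with the smallest p were Tgfa, Cd44, Cd163 and Il6ra. Tgfa, a growth factor released by ADAM17, fell from 65.9 ± 14.2 to 7.34 ± 1.31 CPM, and Il6ra, a cytokine receptor, fell from 147 ± 25.1 to 40.0 ± 0.886 CPM. Cd44, the hyaluronan receptor, rose from 0.274 ± 0.122 to 13.2 ± 5.55 CPM, and Cd163, a scavenger receptor, had 0 counts in WT and was at least 87.08-fold higher (SD, n = 3 for each mean). The adjusted p of these 4 lay between 6.1e-05 and 6.7e-04 (edgeR quasi-likelihood test), and they were called in every alternative that gave a value. The count of called genes in this list was 7 without WT replicate 1 and 6 without IRF8KO replicate 1 or without IRF8KO replicate 3, against 11. Over all alternatives 2 to 8 were called higher and 4 to 9 lower, with 3 higher and 9 lower under library size alone. Cd163 is also one of 10 markers of border-associated macrophages, of which 7 were tested and called higher; their summed level was 609 to 834 CPM in WT and 3707 to 4911 CPM in IRF8KO, and their part in the results was not tested. In the group means Stab1 went from 692 to 1950 CPM, Pf4 from 1.79 to 1881 CPM and Ms4a7 from 0.923 to 413 CPM. Mrc1 went from 3.12 to 39.3 CPM, Cbr2 from 2.11 to 40.8 CPM and F13a1 from 0 to 5.31 CPM. Lyve1 was at 0 counts in all libraries, and Folr2 and Clec10a were below the filter.

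Gamma-secretase cuts the stubs left after shedding, and beta-secretase competes with ADAM10 for the amyloid precursor protein. Of 9 intramembrane and beta-secretase genes, 8 were tested, 2 were called higher and 0 lower (4 had an unadjusted p under 0.05, edgeR; DESeq2 called 4 higher and 0 lower), with a median log2 fold change of 0.76. Aph1a and Aph1c, subunits of gamma-secretase, rose from 19.9 ± 3.03 to 59.7 ± 9.05 CPM and from 2.45 ± 0.949 to 18.2 ± 2.08 CPM (SD, n = 3), with adjusted p of 0.00285 and 0.00153 (edgeR), each called in all 20 alternatives. Without WT replicate 3, 5 genes of this list were called higher, in a fit that called 2168 of 11953 tested genes higher. Of all 11041 genes in the fit reported, 1064 were called higher and 3717 had an unadjusted p under 0.05 (edgeR). DESeq2 called 1331 of them higher.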

How the data were processed

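The authors deposited, for each of 6 libraries, raw counts per gene in the layout that STAR writes, with 4 summary lines that were left out. The submitters' processing notes name STAR 2.5.2b, Picard 2.17.11, Subread, featureCounts and the build mm10, with no roles; the annotation release is not given in the sources used here. Per the labels' protocols, cDNA was made with SMART-Seq v4 and tagged with Nextera XT, without strand information or molecular identifiers, so intervals and floors cover counting error only. Counts that ignore strand were used. Of 49585 genes, 49326 matched GENCODE M21 (GRCm38) by unversioned identifier. Symbols, exonic length, GC content and positions come from it.

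The test was edgeR 4.0.16, run under R 4.3.3 (filterByExpr with a minimum count of 10, TMM, quasi-likelihood F test, genotype as the single term, Benjamini-Hochberg over all 11041 tested genes). SE were derived from the F statistic. Fits were run on simulated counts without a GC trend, a deviating library or a shift of Apoe between groups. That simulation does not show how they handle such features. Alternatives were RLE scaling, library size alone, Apoe left out, DESeq2 1.42.0, limma-voom 3.58.1 and 2 other filters. Further ones were each strand's counts, an offset from a lowess of log2 CPM on GC content, and the replicate number as a block. The block was also fitted with the GC offset, and each library was left out in turn. The 2 added after seeing the data were the GC offset without WT replicate 3, and both deviating libraries left out. Replicate numbers did not pair the libraries: deviations from the group means correlated at −0.26, 0.33 and 0.11 for numbers 1, 2 and 3. Libraries of 1 group differed by more than sampling noise (chi-square per degree of freedom of at least 9.14).

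The members and the lists were chosen with earlier results of these data known. Named beside the members were, from each list, up to 4 called genes with the smallest p, and ADAM, MMP and inhibitor genes averaging 10 CPM or more, and for each called member its 3 nearest genes; Adam19, Mmp9, Mmp11, Mmp25, Reck, Plau, Furin, Pcsk7, Tspan14, Rhbdf1, Rhbdf2, Frmd8 and the markers of cell types beyond the 2 most abundant of a list were named after their values were seen. Protein sequences were not used here.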

Additional observations from a re-analysis of the deposited data

How the results depend on the processing

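Over all genes, 2109 were called in the fit reported, 1064 higher and 1045 lower. Leaving out 1 library gave between 910 (without IRF8KO replicate 3) and 4003 (without WT replicate 3) called genes, and between 1 and 3 called members against 4. The GC offset without WT replicate 3 gave 3762, and leaving out WT replicate 3 and IRF8KO replicate 2 gave 5228. Library size alone gave 25.4% higher calls, against 50.5% under TMM. Apoe had 8193, 16735 and 25640 counts in WT replicates 1 to 3. In IRF8KO replicates 1 to 3 it had 3033753, 2774298 and 3109838 of 8994860, 10886054 and 11098363 gene counts. Under library size alone the IRF8KO levels of all other genes are relative to totals that include these Apoe counts. The replicate block called 2353 genes and 3 members, Adam8 losing its call (adjusted p = 0.0768, edgeR); not every library correlated best with its own number. Among the 7 tested members and the 21 list genes named by rule, directions turned in 5 cases, none of them called. Adam9 went to 0.15 with the replicate block and GC offset, and ranged from −0.87 (without WT replicate 3) to 0.24 (without WT replicate 2) when 1 library was left out. Mmp2 went to −0.28 with library size alone and −0.18 with the GC offset without WT replicate 3, and ranged from −0.10 (without IRF8KO replicate 1) to 0.50 (without IRF8KO replicate 3). The cause was not tested. With exonic length replaced by the longest transcript, the ratio of proteases to TIMPs was 0.826 in WT and 0.453 in IRF8KO. Members and list genes under a few CPM, such as Mmp12, Timp1 and Timp3, are limited by depth.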
